A study of Mus musculus with 12 samples.

Results

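Genes of cholesterol and fatty acid synthesis were followed in CD8 T cells that carried a Batf3 retroviral vector or a control vector. The 34 genes were taken by symbol from the deposited count table of 55335 genes, and each symbol matched 1 row. They comprise 7 enzymes of the mevalonate arm (Acat2, Hmgcs1, Mvk, Pmvk, Mvd, Idi1, Fdps) and 11 enzymes of the sterol arm (Fdft1, Sqle, Lss, Cyp51, Tm7sf2, Msmo1, Nsdhl, Hsd17b7, Ebp, Sc5d, Dhcr7). A further 7 serve fatty acid synthesis, desaturation, elongation and activation (Acly, Acaca, Fasn, Elovl6, Scd1, Scd2, Acsl3). Insig1 and Stard4 are targets of the same pathway that serve feedback and sterol transport, and with the enzymes they make up 27 SREBP targets. The pathway's factors and regulators Srebf1, Srebf2, Scap and Insig2 and the LXR targets Abca1, Abcg1 and Mylip complete the list. All 34 genes passed the filter on low counts, which kept 15702 genes of the table in all.

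Spleens of OT-I mice (C57BL/6 background), whose transgenic receptor recognises an ovalbumin peptide, were the source of the CD8 T cells. A retrovirus delivered either an empty vector or Batf3, a basic leucine zipper factor of the AP-1 family, and transduced cells were sorted. The sorted cells spent 6 h either in medium with 100 ng/ml IL-15, called non-stimulated, or on plate-bound anti-CD3e with anti-CD28, each at 1 µg/ml, called stimulated. RNA was sequenced from 3 libraries of each of the 4 groups, and the labels call these replicates technical. Errors and p-values therefore measure the spread between technical replicates, and the labels give no number of mice or of transductions. IL-15 is named for the non-stimulated cultures alone, so the response to the antibodies and a difference in IL-15 cannot be told apart. The promoter of the vector is not stated, and counts of Batf3 may join vector and endogenous transcripts.

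Sterol and fatty acid synthesis are controlled by the SREBP transcription factors, which are made as membrane precursors in the endoplasmic reticulum. When sterols are scarce, SCAP escorts the precursors to the Golgi for cleavage, and the released factors raise the enzymes of both pathways. When sterols are plentiful, INSIG proteins hold SCAP back. LXR nuclear receptors sense oxysterols, act as partners of RXR, and raise genes that move cholesterol out of the cell or curb its uptake. Activated T cells need membrane lipid for growth, and both arms are known to be regulated on T cell activation.

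Total counts lay between 14211564 and 14468231 per library, and levels are given as CPM, counts brought to a common library size with TMM factors. Non-stimulated cells held 6.77 ± 0.833 CPM of Batf3 under the empty vector and 470.4 ± 3.68 CPM under the Batf3 vector (SD, n = 3), and stimulated cells 18.4 ± 0.735 CPM and 427 ± 11.9 CPM. The 7 CD8 T cell markers, led by Cd8a, were all detected and summed to between 1410 and 2661 CPM. The 4 CD4 T cell markers, led by Zbtb7b or Cd40lg, summed to between 13.5 and 73.5 CPM and were highest in Batf3 stimulated libraries. The 5 B cell markers summed to between 0.685 and 6.25 CPM with Ms4a1 at 0 in all libraries, and the 4 erythroid markers to between 0 and 2.18 CPM. Of 8 markers of macrophages and monocytes, Ly6c2, which CD8 T cells also express, held most of the counts. The other 7 summed to between 8.49 and 19.0 CPM, with Lyz2 at 0 in all libraries. The 6 dendritic cell markers summed to between 24.6 and 64.0 CPM, led by Xcr1 or Itgax, with Siglech at 0 in all libraries.

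In non-stimulated cells the Batf3 vector lowered much of the cholesterol and fatty acid synthesis programme and raised the listed LXR targets Abca1, Abcg1 and Mylip. Of the 27 SREBP targets, 17 fell, 2 rose and 8 were not called at an adjusted p under 0.05. These are 62.96% and 7.41% of the targets, beside 23.0% of all tested genes called lower and 16.3% called higher. Their median log2 change was -0.31, against -0.02 over all tested genes. All 3 LXR targets rose, with a median of 0.42. No gene of the list changed by as much as 2-fold, and the log2 changes ran from -0.65 to 0.90. In bulk RNA, fewer cells that express a gene and less RNA per cell cannot be told apart.

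In the mevalonate arm, which builds isoprenoid precursors from acetyl-CoA, 4 of 7 genes fell and 1 rose. Idi1, the isomerase that makes dimethylallyl diphosphate, stood at 49.96, 49.9 and 49.9 CPM in the control libraries and at 31.3, 32.7 and 31.2 CPM in the Batf3 libraries. The 3 Batf3 libraries lay below the 3 control libraries, and the log2 change was -0.65 ± 0.06 (SE, edgeR adjusted p = 1.25e-15). Hmgcs1, the cytosolic synthase that makes HMG-CoA, stood at 62.2, 62.8 and 68.4 CPM with the control vector and at 42.3, 44.8 and 39.7 CPM with the Batf3 vector. Again the groups did not overlap, with a log2 change of -0.61 ± 0.06 (edgeR adjusted p = 2.76e-14). Among all tested genes, 47.8% had groups that did not overlap in this comparison. Pmvk, the phosphomevalonate kinase, stood at 14.9, 14.3 and 17.8 CPM and then at 11.9, 10.96 and 11.8 CPM, also without overlap, and fell by 0.44 ± 0.10 on the log2 scale (edgeR adjusted p = 2.02e-04). Fdps, the farnesyl diphosphate synthase, fell from 6.501 ± 0.840 CPM to 4.39 ± 1.16 CPM (-0.56 ± 0.17). Acat2, the cytosolic thiolase at the head of the arm, went the other way and rose from 36.7 ± 2.93 CPM to 45.4 ± 0.441 CPM (0.31 ± 0.06, edgeR adjusted p = 1.91e-05). Mvk and Mvd, the mevalonate kinase and the decarboxylase, had log2 changes of -0.31 (95% interval -0.60 to -0.02) and -0.11 (-0.29 to 0.08) and were not called.

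In the sterol arm, from squalene to cholesterol, 8 of 11 genes fell and 1 rose. Sqle, the squalene epoxidase and a rate-limiting step of the arm, stood at 55.01, 59.1 and 57.2 CPM with the control vector and at 38.2, 36.7 and 39.1 CPM with the Batf3 vector. These groups did not overlap, and the log2 change was -0.59 ± 0.05 (edgeR adjusted p = 2.75e-14). Lss, the lanosterol synthase, stood at 29.1, 31.03 and 28.96 CPM and then at 25.4, 21.1 and 22.05 CPM. Its groups were separate too, with a change of -0.38 ± 0.07 (edgeR adjusted p = 1.91e-05). Dhcr7, the reductase of the last step to cholesterol, stood at 16.9, 19.2 and 15.04 CPM and then at 13.7, 13.3 and 12.4 CPM (-0.38 ± 0.10), without overlap. Fdft1, the squalene synthase, stood at 20.7, 22.2 and 21.4 CPM and then at 19.1, 17.9 and 17.4 CPM (-0.24 ± 0.08), again without overlap. Of the enzymes between them 4 fell: Msmo1 changed by -0.50 ± 0.08, Hsd17b7 by -0.47 ± 0.09, Cyp51 by -0.38 ± 0.05 and the desaturase gene Sc5d by -0.16 ± 0.06. Tm7sf2, a sterol C14 reductase, rose from 5.704 ± 1.26 CPM to 8.45 ± 0.736 CPM (0.57 ± 0.14, edgeR adjusted p = 9.63e-04). Nsdhl and the isomerase gene Ebp had log2 changes of -0.19 and -0.13 and were not called.

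**Figure D1:**
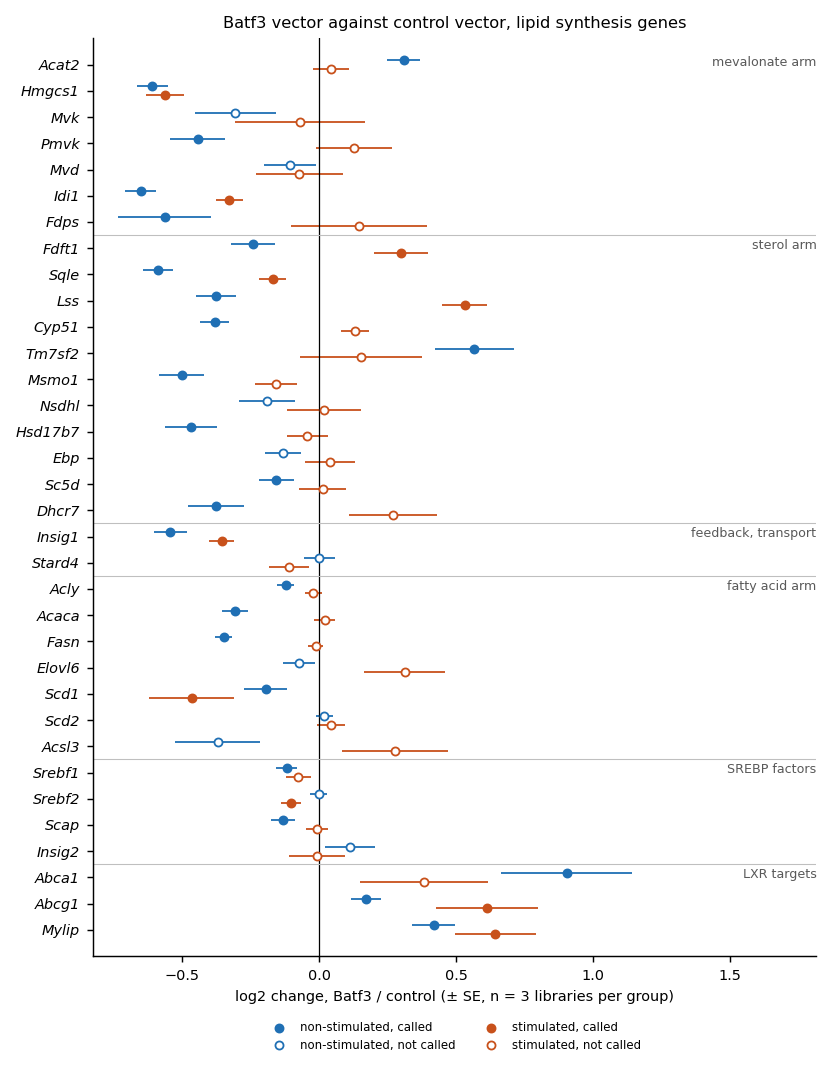
Log2 change between the Batf3 and the control vector (x axis, ± SE, n = 3 libraries per group) for each of the 34 genes (y axis, grouped by role), in non-stimulated (blue) and stimulated cells (orange); filled points were called. Most blue points of the SREBP targets lie left of 0, with 17 of 27 called lower, while the orange points scatter around 0 and the LXR targets lie right of 0 in both colours.

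Of the 2 targets outside the enzymes, Insig1 fell and Stard4 did not. Insig1, the sterol-regulated anchor of SCAP, stood at 35.7, 38.3 and 38.2 CPM in control libraries and at 25.9, 25.2 and 25.96 CPM in Batf3 libraries. All 3 Batf3 libraries were lower, and the log2 change was -0.54 ± 0.06 (edgeR adjusted p = 1.78e-11). Stard4, a cytosolic sterol carrier, stood at 48.9 ± 1.92 CPM and 48.9 ± 2.39 CPM, a log2 change of 0.00 (95% interval -0.11 to 0.11). In the fatty acid arm 4 of 7 fell and 0 rose. Fasn, the fatty acid synthase, fell from 314 ± 7.17 CPM to 247 ± 11.01 CPM (-0.35 ± 0.03, edgeR adjusted p = 3.33e-15). Acaca, the acetyl-CoA carboxylase that feeds it, changed by -0.31 ± 0.05, and Acly, which makes cytosolic acetyl-CoA from citrate, by -0.12 ± 0.03. The stearoyl-CoA desaturase genes differed: Scd1 stood at 30.9, 29.5 and 27.03 CPM and then at 25.9, 25.1 and 25.4 CPM, and Scd2 at 399, 398 and 395 CPM and then at 405, 407 and 398 CPM. Scd1 fell by 0.20 ± 0.08 on the log2 scale without overlap, whereas Scd2, with overlapping groups, had a change of 0.02 ± 0.03 and was not called. Scd2 was called higher, by 0.094, with library sizes alone. Elovl6, the elongase of palmitate, stood at 49.1, 49.4 and 50.6 CPM and then at 44.4, 47.9 and 49.4 CPM, with overlap and no call (-0.07 ± 0.06). Acsl3, an acyl-CoA synthetase, had a change of -0.37 ± 0.16 and was not called.

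The genes of the factors and regulators had log2 changes from -0.13 to 0.11. Srebf2, which encodes the SREBP of sterol synthesis, stood at 255, 255 and 269 CPM with the control vector and at 269, 251 and 259 CPM with the Batf3 vector. Its groups overlapped, and its log2 change of -0.0017 had a 95% interval of -0.06 to 0.06. Srebf1, whose SREBP-1c form serves fatty acid synthesis and whose forms gene counts do not separate, stood at 137, 138 and 136 CPM and then at 132, 125 and 121 CPM. It fell by 0.12 ± 0.04 on the log2 scale (edgeR adjusted p = 0.00909). Scap stood at 89.1, 84.9 and 91.5 CPM and then at 82.4, 77.2 and 82.8 CPM and fell by 0.13 ± 0.04 (edgeR adjusted p = 0.0111). Insig2, the INSIG that SREBP does not induce, stood at 13.4, 14.6 and 13.6 CPM and then at 15.6, 15.4 and 13.97 CPM, with overlapping groups and no call (0.11 ± 0.09). Thus Insig1 fell and Insig2 was not called, and the difference between these paralogs was not tested.

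The 3 LXR targets stood above their control level in each Batf3 library. Mylip, also known as IDOL, a ubiquitin ligase that degrades lipoprotein receptors, stood at 19.1, 20.02 and 20.01 CPM with the control vector and at 25.6, 28.6 and 24.7 CPM with the Batf3 vector, a log2 change of 0.42 ± 0.08 (edgeR adjusted p = 1.26e-05). Abca1, the transporter that loads cholesterol onto apolipoproteins, stood at 2.39, 1.26 and 2.12 CPM and then at 3.19, 4.55 and 3.08 CPM. It was the least expressed gene of the list, and its log2 change was 0.90 ± 0.24 (edgeR adjusted p = 0.00141). Abcg1, which exports cholesterol to high-density lipoprotein, stood at 47.6, 48.3 and 46.8 CPM and then at 54.6, 51.3 and 54.8 CPM (0.17 ± 0.06, edgeR adjusted p = 0.011). With DESeq2 the adjusted p of Abcg1 was 0.0552. Summed markers of other cells that also express cholesterol transporters moved alongside: the 7 macrophage markers other than Ly6c2 summed to 8.49 to 10.5 CPM in control and 14.2 to 15.3 CPM in Batf3 libraries, with Lyz2 at 0. The 6 dendritic cell markers summed to 24.6 to 26.1 and 31.9 to 34.1 CPM, and the 4 CD4 T cell markers to 13.5 to 16.8 and 34.5 to 36.8 CPM. Zbtb7b led the CD4 T cell sum, with means of 14.0 and 22.9 CPM. The dendritic cell sum was led by Xcr1 (9.13 CPM) in control and by Itgax (15.7 CPM) in Batf3 libraries. Itgax, at no more than 9.13 CPM in control libraries, thus held most of the rise of that sum. The part of such cells in the LXR target values was not tested.

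Some calls in non-stimulated cells, small and large, depended on single libraries or on scaling. Leaving out 1 library ended the call of Fdps (without Batf3 non-stimulated replicate 2, -0.37), of Fdft1 (without control non-stimulated replicate 2 or Batf3 non-stimulated replicate 3) and of Abcg1 (without control non-stimulated replicate 3 or Batf3 non-stimulated replicate 1 or 3). For Srebf1 this held for each control stimulated replicate and Batf3 non-stimulated replicate 3, and for Scap for control non-stimulated replicate 3, each control stimulated replicate, Batf3 non-stimulated replicate 2 and Batf3 stimulated replicate 2. The call of Sc5d was kept without control non-stimulated replicate 2, Batf3 non-stimulated replicate 2 or Batf3 stimulated replicate 3 and lost without any of the other 9 libraries. That of Scd1 was kept without control non-stimulated replicate 3 or Batf3 stimulated replicate 3 and lost without any of the other 10. Stimulated libraries are not compared here and enter only through the filter, the TMM factors and the spread. Without a control stimulated replicate, or Batf3 stimulated replicate 1 or 2, the median of all tested genes was 0.004 to 0.005, against -0.02. The share of called genes that were higher was then 48.2% to 48.4%, against 41.5%. In fits without 1 library, 15 to 18 of the 27 SREBP targets fell, and with library sizes alone 13 did. With library sizes alone the share of called genes of the whole table that were higher was 60.1% against 41.5% with TMM factors, and 6 genes of the list were called higher and 13 lower against 5 and 19. The calls of Fdft1, Sc5d, Acly, Scd1, Srebf1 and Scap were lost in that fit.

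Promoters of the list were read from RefSeq windows (GRCm38.p6) of 250 bases before to 50 bases after a start site, which were held for 27 of the 34 genes. The windows of Hmgcs1, of Lss and Fasn, which were chosen after their values were seen, and of Abca1 are shown because they hold motifs of SREBP, its partner NF-Y or LXR. In the first 3, capitals mark the SREBP element core TCACNCCAC and the CCAAT box, on either strand, and in Abca1 they mark a direct repeat of the LXR kind, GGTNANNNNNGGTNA. A match to this repeat in the Fasn window is left in lower case.
Hmgcs1 promoter (chr13:119690101-119690400, plus strand): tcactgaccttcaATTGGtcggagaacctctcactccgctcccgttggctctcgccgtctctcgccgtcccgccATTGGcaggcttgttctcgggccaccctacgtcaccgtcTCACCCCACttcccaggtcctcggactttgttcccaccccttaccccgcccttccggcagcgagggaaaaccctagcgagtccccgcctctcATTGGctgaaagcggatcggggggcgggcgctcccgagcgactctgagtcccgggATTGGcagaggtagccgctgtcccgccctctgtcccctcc
Lss promoter (chr10:76531355-76531654, plus strand): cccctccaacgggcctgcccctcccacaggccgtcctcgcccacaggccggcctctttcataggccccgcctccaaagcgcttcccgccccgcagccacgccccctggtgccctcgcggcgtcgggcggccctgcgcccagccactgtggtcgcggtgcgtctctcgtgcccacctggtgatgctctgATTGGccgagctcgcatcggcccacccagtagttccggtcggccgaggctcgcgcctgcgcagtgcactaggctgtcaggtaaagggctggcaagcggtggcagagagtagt
Fasn promoter (chr11:120824498-120824797, minus strand): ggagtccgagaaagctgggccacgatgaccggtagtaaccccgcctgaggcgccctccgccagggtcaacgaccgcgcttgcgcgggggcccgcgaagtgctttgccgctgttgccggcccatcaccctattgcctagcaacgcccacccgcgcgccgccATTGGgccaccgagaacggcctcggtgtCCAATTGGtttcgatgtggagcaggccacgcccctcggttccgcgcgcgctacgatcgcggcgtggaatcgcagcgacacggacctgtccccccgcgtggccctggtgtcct
Abca1 promoter (chr4:53159846-53160145, minus strand): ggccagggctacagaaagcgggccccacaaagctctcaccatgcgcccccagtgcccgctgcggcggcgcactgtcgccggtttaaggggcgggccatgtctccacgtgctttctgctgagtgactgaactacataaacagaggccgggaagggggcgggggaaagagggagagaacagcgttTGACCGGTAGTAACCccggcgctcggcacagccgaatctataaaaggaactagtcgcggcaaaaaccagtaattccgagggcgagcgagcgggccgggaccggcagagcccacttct

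A CCAAT box, the element of the factor NF-Y that acts beside SREBP at many of its targets, was present on either strand in 22 of 27 genes (81.5%). It was present in all 9 sterol arm genes with a window, and in 43.2% of 10022 other tested genes with a window. The SRE core was found in 1 of the 27, Hmgcs1, whose match TCACCCCAC starts 137 bases before the start site, and in 1.38% of the other tested genes. The strict repeat AGGTNANNNNAGGTNA was in none of the 27. The looser repeat, chosen after the Abca1 window had been read, was in Abca1, Acsl3, Fasn and Srebf1 and in 0.519% of the other tested genes. Of these genes Abca1 rose, Fasn and Srebf1 fell and Acsl3 was not called with Batf3 in non-stimulated cells. The AP-1 site TGANTCA, which reads alike on both strands, was in Dhcr7 and Msmo1, 7.41% of the 27, against 6.32% of the others. Genes with several start sites were counted once if any window held the motif. The share over all 32851 windows of the same length was 37.4% for CCAAT, 1.24% for the SRE core, 0.718% for the looser repeat, 0.0974% for the strict one and 7.81% for the AP-1 site.

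In stimulated cells the Batf3 vector changed fewer of the SREBP targets, and 2 of the 3 LXR targets rose. Of the 27 SREBP targets, 5 fell (Hmgcs1, Idi1, Sqle, Insig1 and Scd1), 2 rose (Lss and Fdft1) and 20 were not called. These are 18.5% and 7.41% of the targets, beside 14.6% of all tested genes called lower and 14.8% called higher. Their median log2 change was 0.02, against 0.00 over all tested genes. Of the 3 LXR targets, Abcg1 and Mylip rose and Abca1 was not called, with a median of 0.61.

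Hmgcs1 stood at 39.3, 38.6 and 38.3 CPM in control stimulated libraries and at 27.5, 27.7 and 23.4 CPM in Batf3 stimulated libraries, with a log2 change of -0.56 ± 0.07 (edgeR adjusted p = 4.58e-10). The Batf3 libraries of both cultures thus lay below their controls. Idi1 stood at 78.6, 80.3 and 80.96 CPM and then at 67.5, 62.2 and 61.4 CPM, also without overlap (-0.33 ± 0.05, edgeR adjusted p = 1.03e-07). Groups did not overlap for 39.8% of all tested genes. Insig1 stood at 93.4, 95.7 and 89.2 CPM and then at 70.97, 71.1 and 75.3 CPM, all 3 Batf3 libraries being lower (-0.36 ± 0.05, edgeR adjusted p = 5.25e-09). Sqle stood at 78.8, 76.98 and 72.9 CPM and then at 71.3, 63.8 and 68.2 CPM, lower by a smaller step (-0.17 ± 0.05). Scd1 stood at 6.17, 8.16 and 5.33 CPM and then at 5.28, 5.42 and 3.54 CPM, with groups that overlapped and a change of -0.47 ± 0.15 (edgeR adjusted p = 0.0161).

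Lss, which the vector lowered in non-stimulated cells, was higher in all 3 Batf3 libraries here, at 19.3, 17.5 and 16.7 CPM with the control vector and 24.8, 27.1 and 25.4 CPM with the Batf3 vector. The log2 change was 0.53 ± 0.08 (edgeR adjusted p = 2.86e-07). Fdft1 followed it, at 11.6, 11.7 and 12.9 CPM and then 15.03, 13.4 and 16.2 CPM (0.30 ± 0.10, edgeR adjusted p = 0.0143). Dhcr7 and Pmvk were not called: Dhcr7 stood at 3.58, 5.18 and 5.94 CPM and then at 5.13, 6.16 and 6.42 CPM (0.27 ± 0.16). Pmvk stood at 6.7004, 6.402 and 5.79 CPM and then at 7.66, 6.53 and 6.42 CPM (0.13 ± 0.14). In both the control and Batf3 libraries overlapped. Fasn and Acaca, at 854 ± 11.4 CPM against 846 ± 32.2 CPM and 155 ± 3.09 CPM against 157 ± 2.07 CPM, had log2 changes of -0.01 (95% interval -0.07 to 0.04) and 0.02 (-0.06 to 0.10). Elovl6 was called only without control stimulated replicate 1 (0.45). It stood at 5.25, 4.42 and 3.58 CPM and then at 5.95, 5.19 and 5.31 CPM, and Scd2 at 41.6, 40.6 and 37.9 CPM and then at 37.6, 43.2 and 42.9 CPM, both with overlap and no call (0.31 ± 0.15 and 0.04 ± 0.05). The remaining uncalled targets had log2 changes from -0.16 for Msmo1 to 0.28 for Acsl3.

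Among the regulators, Srebf2 stood at 148, 152 and 147 CPM with the control vector and at 142, 137 and 138 CPM with the Batf3 vector. It fell by 0.10 ± 0.04 on the log2 scale (edgeR adjusted p = 0.0206), without overlap. Srebf1 stood at 74.01, 72.7 and 72.1 CPM and then at 70.6, 65.95 and 70.96 CPM and was not called (-0.08 ± 0.05). Scap, at 134, 135 and 130.5 CPM and then 125, 135 and 138 CPM, and Insig2, at 13.6, 11.9 and 11.96 CPM and then 12.4, 13.1 and 11.7 CPM, overlapped between the groups and were not called (-0.01 ± 0.04 and -0.01 ± 0.10). Mylip stood at 3.65, 4.497 and 4.42 CPM and then at 6.92, 6.83 and 5.901 CPM, all 3 Batf3 libraries being higher (0.64 ± 0.15, edgeR adjusted p = 3.71e-04). Abcg1 stood at 2.28, 2.67 and 2.51 CPM and then at 4.17, 3.93 and 3.32 CPM, also without overlap (0.61 ± 0.19, edgeR adjusted p = 0.00547). Abca1 stood at 2.59, 1.83 and 3.66 CPM and then at 3.497, 2.74 and 4.28 CPM. Its groups overlapped, and its log2 change of 0.38 ± 0.23 was not called. The macrophage markers other than Ly6c2 summed to 11.1 to 13.6 CPM in control and 16.8 to 19.0 CPM in Batf3 stimulated libraries. The dendritic cell markers summed to 35.8 to 41.1 and 60.0 to 64.0 CPM, and the CD4 T cell markers to 25.1 to 28.3 and 69.1 to 73.5 CPM. A single gene held most of each of the latter sums in Batf3 libraries and most of its rise over control. Itgax had means of 17.6 and 43.7 CPM in control and Batf3 libraries, and Cd40lg of 16.9 and 56.6 CPM. The part of other cells in the LXR target values was not tested.

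Several of these calls rested on single libraries. That of Scd1 was lost without control stimulated replicate 2 (-0.29) or Batf3 stimulated replicate 3 (-0.30), that of Fdft1 without control stimulated replicate 1 or 2 or Batf3 stimulated replicate 3, that of Sqle without Batf3 stimulated replicate 2, and that of Srebf2 without control stimulated replicate 2 or Batf3 stimulated replicate 2. With library sizes alone, 65.6% of called genes of the table were higher against 50.3% with TMM factors. The list then held 5 genes called higher and 4 lower against 4 and 6, as Sqle and Srebf2 were no longer called and Cyp51 was called higher (0.18).

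**Figure D2:**
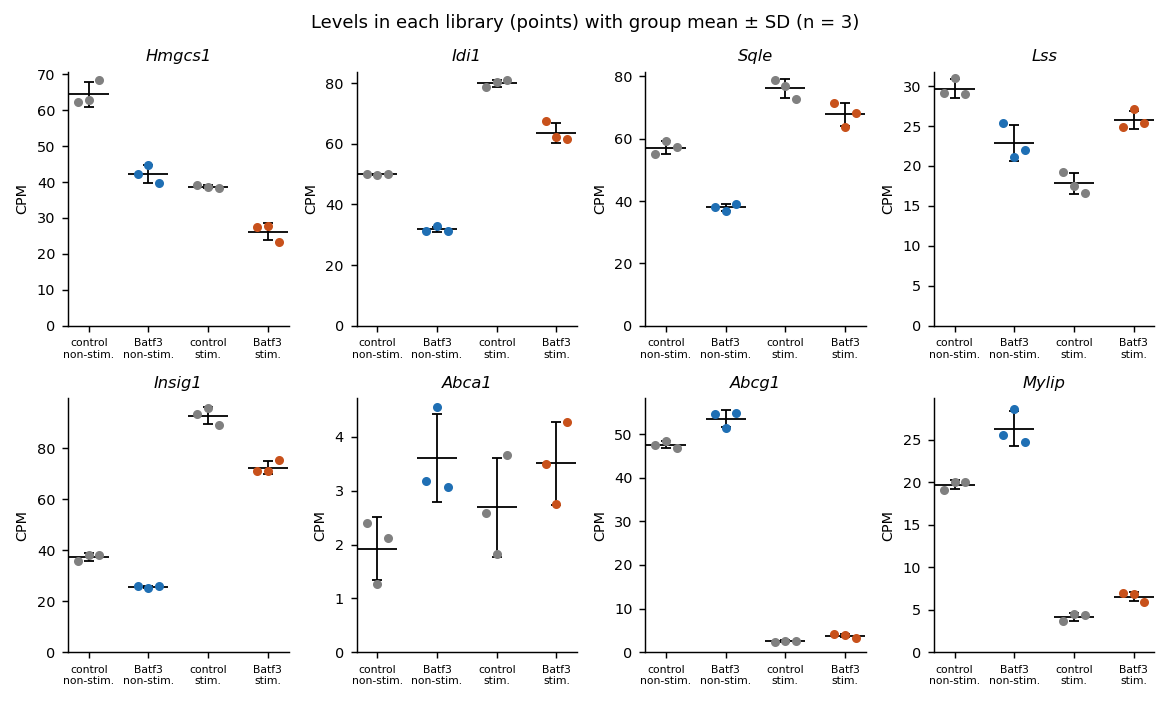
Level in CPM (y axis, from 0) in each of the 12 libraries (points) with the group mean ± SD (black, n = 3), for 5 SREBP targets and the 3 LXR targets across the 4 groups (x axis; control grey, Batf3 coloured). Hmgcs1 is lower with Batf3 in both cultures, Lss is lower in non-stimulated and higher in stimulated Batf3 libraries, and Abcg1 and Mylip drop to a few CPM on stimulation.

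Whether the effect of Batf3 differed between the cultures was tested with the vector by stimulation interaction, the Batf3 effect in stimulated cells minus that in non-stimulated cells. Of the 27 SREBP targets, 11 had a higher (more positive) Batf3 effect in stimulated cells and 1, Acat2, a lower one. These are 40.7% and 3.704%, beside 14.6% and 6.08% of all tested genes. The median difference over the targets was 0.32, against 0.05 over all tested genes. The sign of the difference was positive for 23 of the 27 (85.2%), against 57.8% of all tested genes. The 11 genes were Pmvk and Idi1 of the mevalonate arm, Fdft1, Sqle, Lss, Cyp51, Msmo1, Hsd17b7 and Dhcr7 of the sterol arm, and Acaca and Fasn. All 11 were among the 17 genes that fell with Batf3 in non-stimulated cells, a comparison that shares libraries with the interaction. In stimulated cells Idi1 and Sqle still fell, by less, Lss and Fdft1 rose, and the rest of the 11 were not called.

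Among the called genes Lss had the largest difference, 0.91 ± 0.11 (edgeR adjusted p = 9.19e-10), from -0.38 in non-stimulated to 0.53 in stimulated cells. Dhcr7 followed with 0.65 ± 0.19, Pmvk with 0.57 ± 0.17 and Fdft1 with 0.54 ± 0.13. For Fasn the difference was 0.34 ± 0.04 (edgeR adjusted p = 1.24e-09), from -0.35 to -0.01. Hmgcs1 showed no call, with a difference of 0.05 (95% interval -0.13 to 0.22), and Insig1 had 0.19 (0.04 to 0.34). The 3 LXR targets and the 4 factors and regulators were not called either. Their differences ran from -0.52 for Abca1 to 0.44 for Abcg1 and from -0.12 to 0.12. Leaving out 1 library gave 8 to 12 SREBP targets with a higher effect. It ended the calls of Msmo1 (without control non-stimulated replicate 3, any control stimulated replicate, Batf3 non-stimulated replicate 3 or Batf3 stimulated replicate 2), of Pmvk and Hsd17b7 (without control stimulated replicate 3 or Batf3 stimulated replicate 1), of Dhcr7 (without control stimulated replicate 1) and of Acat2 (without control non-stimulated replicate 3 or Batf3 stimulated replicate 1). Elovl6 was called without control stimulated replicate 1 (0.49), Fdps without Batf3 non-stimulated replicate 1 (0.89), Insig1 without control non-stimulated replicate 1 (0.22), Acsl3 without control non-stimulated replicate 2 or Batf3 non-stimulated replicate 3, and Srebf2 without control stimulated replicate 3 or Batf3 stimulated replicate 1.

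Stimulation split the programme by step, with log2 changes from -4.25 to 1.44 over the 34 genes. With the control vector, 18 of 27 SREBP targets fell and 8 rose, or 66.7% and 29.6%, beside 40.7% and 39.6% of all tested genes. Those that rose were Idi1, Sqle, Msmo1, Hsd17b7, Insig1, Acly, Acaca and Fasn. In the mevalonate arm 6 of 7 fell, with log2 changes down to -1.75 for Mvd, and Idi1 alone rose (0.68 ± 0.05). In the sterol arm 7 of 11 fell, down to -1.80 ± 0.14 for Dhcr7, and 3 rose, up to 0.97 ± 0.08 for Hsd17b7. Cyp51 was not called, at 61.998 ± 2.73 CPM and 62.4 ± 5.53 CPM. The median over the SREBP targets was -0.89, against -0.01 over all tested genes. Cell type markers moved in this comparison too: the summed CD8 T cell markers went from between 2631 and 2661 CPM in control non-stimulated libraries to between 1410 and 1423 CPM in control stimulated ones. Cd8a, which led that sum, took a smaller step, from a mean of 748 CPM to 555 CPM. The B cell markers went from between 3.11 and 4.58 to between 0.685 and 1.45 CPM, and the dendritic cell markers from between 24.6 and 26.1 to between 35.8 and 41.1 CPM. Itgax held most of the dendritic cell rise, from a mean of at most 9.13 CPM to 17.6 CPM. The summed CD4 T cell markers went from between 13.5 and 16.8 to between 25.1 and 28.3 CPM, and the macrophage markers other than Ly6c2 from between 8.49 and 10.5 to between 11.1 and 13.6 CPM. Their part in the stimulation values was not tested.

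Within fatty acid synthesis Fasn and Acaca, which build the chain, rose, and the desaturases and the elongase fell. Fasn rose from 314 ± 7.17 CPM to 854 ± 11.4 CPM (1.44 ± 0.03, edgeR adjusted p = 1.44e-47) and Acaca from 61.98 ± 3.52 CPM to 155 ± 3.09 CPM (1.32 ± 0.04). Scd2 fell from a lowest value of 395 CPM among control non-stimulated libraries to a highest of 41.6 CPM among stimulated ones, a log2 change of -3.31 ± 0.04 (edgeR adjusted p = 1.05e-60). Elovl6 fell from a lowest of 49.1 CPM to a highest of 5.25 CPM (-3.49 ± 0.12, edgeR adjusted p = 2.27e-41). Scd1 changed by -2.15 ± 0.12. Acsl3 fell by 0.89 ± 0.18, and Acly changed by 0.12 ± 0.03. With library sizes alone the median of all genes stood at -0.19 against -0.01 with TMM factors, and 6 SREBP targets rose and 19 fell. Acly then stood at -0.065 and Msmo1 at 0.12, neither called, and Cyp51 (-0.18) and Insig2 (-0.34) were called lower.

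Of the regulators, Insig1 rose with stimulation from 37.4 ± 1.47 CPM to 92.8 ± 3.32 CPM (1.31 ± 0.05, edgeR adjusted p = 6.42e-33) and Scap from 88.5 ± 3.36 CPM to 133 ± 2.53 CPM (0.59 ± 0.04). Srebf1 and Srebf2 fell, by 0.91 ± 0.04 and 0.80 ± 0.03 on the log2 scale, and Insig2 was not called (-0.15 ± 0.10). Among the LXR targets, Abcg1 fell from 47.6 ± 0.746 CPM to 2.49 ± 0.193 CPM (-4.25 ± 0.15, edgeR adjusted p = 5.34e-44), the largest change of the list in this comparison. Mylip fell from 19.7 ± 0.511 CPM to 4.19 ± 0.465 CPM (-2.23 ± 0.13). Abca1 stood at 1.92 ± 0.591 CPM and 2.69 ± 0.917 CPM and was not called (0.48 ± 0.26). It was called without control non-stimulated replicate 1 (0.66) or control stimulated replicate 2 (0.70). Thus 13 of the 18 cholesterol enzymes (72.2%) fell on stimulation together with Abcg1 and Mylip, where 40.7% of all tested genes fell. With Batf3 in non-stimulated cells 12 of the 18 (66.7%) fell, where 23.0% of all tested genes fell, and all 3 LXR targets rose. These comparisons share the control non-stimulated libraries.

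With the Batf3 vector, stimulation gave 16 falls and 10 rises among the 27 SREBP targets, beside 41.4% and 41.2% of all tested genes. The 8 genes that rose with the control vector also rose here, and Cyp51 (0.52 ± 0.05) and Lss (0.17 ± 0.08) were called higher in addition. The call of Lss was lost without any of the control stimulated replicates, without Batf3 non-stimulated replicate 2 or 3, or without Batf3 stimulated replicate 1 or 2, and its change stood at -0.044 with library sizes alone. The control stimulated libraries are not compared here. Without any 1 of them the median of all tested genes was -0.03, against 0.01. Fasn rose by 1.78 ± 0.03 on the log2 scale, Acaca by 1.65 ± 0.04 and Hsd17b7 by 1.40 ± 0.09, and Insig1 rose from 25.7 ± 0.426 CPM to 72.5 ± 2.48 CPM. Abcg1, Scd2, Elovl6 and Scd1 had the 4 largest changes, at -3.81 ± 0.12, -3.29 ± 0.04, -3.10 ± 0.11 and -2.42 ± 0.13. Srebf1, Srebf2 and Insig2 fell (-0.87, -0.90 and -0.27), Scap rose (0.72), and Abca1 was not called (-0.04 ± 0.21). In these libraries the summed CD8 T cell markers went from between 2519 and 2533 to between 1702 and 1746 CPM, with Cd8a at means of 652 and 622 CPM. The dendritic cell markers went from between 31.9 and 34.1 to between 60.0 and 64.0 CPM and the B cell markers from between 4.17 and 6.25 to between 1.18 and 1.85 CPM. Itgax held most of the dendritic cell rise, with means of 15.7 and 43.7 CPM. The CD4 T cell markers went from between 34.5 and 36.8 to between 69.1 and 73.5 CPM. The macrophage markers other than Ly6c2 went from between 14.2 and 15.3 to between 16.8 and 19.0 CPM. The part of all these markers in the stimulation values was not tested.

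**Figure D3:**
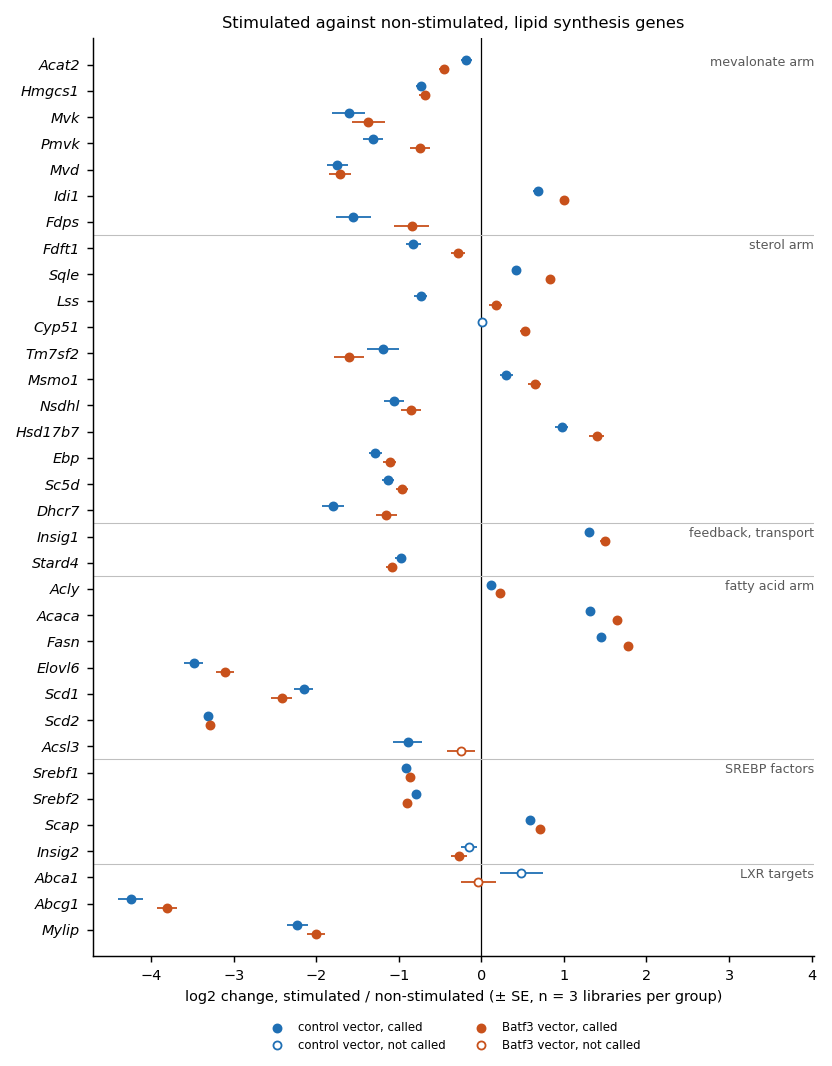
Log2 change between stimulated and non-stimulated cells (x axis, ± SE, n = 3 libraries per group) for each of the 34 genes (y axis, grouped by role), with the control (blue) and the Batf3 vector (orange); filled points were called. Abcg1, Elovl6, Scd2, Scd1 and Mylip lie farthest left with both vectors, and Fasn, Acaca and Insig1 farthest right.

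Levels per kilobase of exonic sequence, which allow genes to be compared with each other, spanned from 0.186 CPM per kb for Abca1 to 72.8 for Scd2 in control non-stimulated cells. After Scd2 came Acly (41.5), Srebf2 (36.1), Fasn (28.7) and Srebf1 (24.3). In control stimulated cells Fasn led with 78.1 CPM per kb, followed by Acly (45.1) and Insig1 (29.996), and Scd2 stood at 7.33. Per length, Scd2 exceeded Scd1 in all 4 groups, with means of 72.8, 73.8, 7.33 and 7.54 against 5.96, 5.201, 1.34 and 0.970 CPM per kb in control non-stimulated, Batf3 non-stimulated, control stimulated and Batf3 stimulated cells. Insig1 likewise exceeded Insig2, by 12.1 to 3.99 CPM per kb in control non-stimulated cells and 29.996 to 3.597 in control stimulated cells. Summed over the 18 cholesterol enzymes, levels were 524 ± 7.03 CPM in control non-stimulated, 419 ± 9.36 in Batf3 non-stimulated, 443 ± 13.1 in control stimulated and 422 ± 6.28 in Batf3 stimulated libraries. The 3 LXR targets together stood at 69.3 ± 0.333, 83.5 ± 0.958, 9.37 ± 1.08 and 13.9 ± 0.624 CPM in that order.

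**Figure D4:**
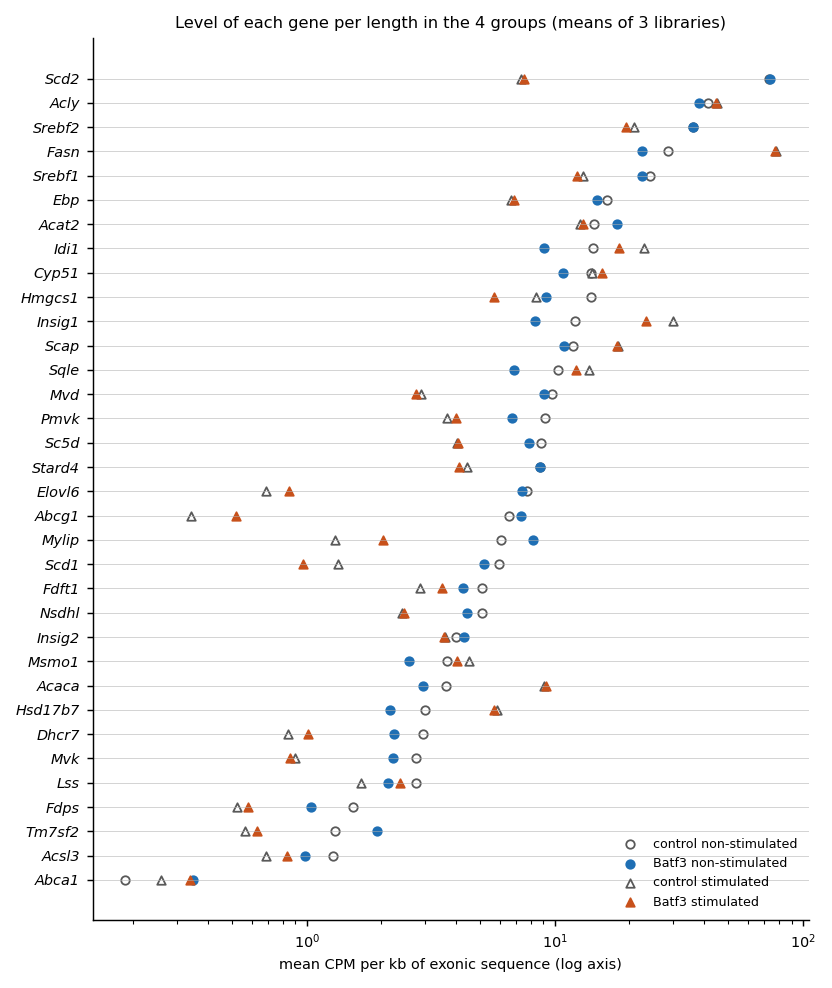
Mean level of each gene in CPM per kb of exonic sequence (x axis, log scale; 3 libraries per group) in the 4 groups, ordered by the control non-stimulated level (y axis; circles non-stimulated, triangles stimulated, filled symbols Batf3). Scd2 moves from 72.8 to 7.33 CPM per kb on stimulation of control cells, and Fasn from 28.7 to 78.1.

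Some of these counts may mix genes. The protocols name a stranded kit, but the strand setting of the counting is not stated. Reads of Fdft1 and Ctsb, of Cyp51 and Akap9 and of Srebf1 and Rai1, whose exons overlap on opposite strands, may therefore not have been told apart. Tm7sf2 overlaps Vps51, Acsl3 overlaps Utp14b and Fdps overlaps Gm43738, each on the same strand. Over all libraries Ctsb held 12343 counts against 2897 for Fdft1, and Vps51 held 4771 against 864 for Tm7sf2. Gm43738 held 0 against 686 for Fdps. Acat2 has the close copy Acat3, and Scd1 and Scd2 have close relatives in Scd3 and Scd4, and how reads with several alignments were counted is not stated. The main members lie on GRCm38 at chromosome 13, 119690379 to 119708260 (Hmgcs1), chromosome 13, 8885501 to 8892451 (Idi1), chromosome 15, 59315077 to 59331192 (Sqle), chromosome 10, 76531588 to 76557138 (Lss), chromosome 5, 28071363 to 28078662 (Insig1), chromosome 11, 120805846 to 120824547 (Fasn), chromosome 19, 44293674 to 44306864 (Scd2), chromosome 4, 53030787 to 53159895 (Abca1), chromosome 17, 31057675 to 31117988 (Abcg1) and chromosome 13, 45389742 to 45412022 (Mylip).

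Of 20 other genes of lipid synthesis, 2 rose and 8 fell with Batf3 in non-stimulated cells, and 4 rose and 1 fell in stimulated cells. For this and the following lists, the shares of all tested genes called higher and lower were 16.3% and 23.0% in non-stimulated and 14.8% and 14.6% in stimulated cells, 14.6% and 6.08% for the interaction, and 39.6% and 40.7% on stimulation of control cells. Fads2, the delta-6 desaturase of polyunsaturated fatty acids, fell from 37.1 ± 1.59 CPM to 20.7 ± 1.11 CPM in non-stimulated cells (-0.84 ± 0.07) and from 7.49 ± 0.691 CPM to 5.78 ± 0.394 CPM in stimulated cells (-0.37 ± 0.13). Fabp5, a fatty acid carrier, changed by -0.37 ± 0.06 and Elovl5, an elongase of polyunsaturated fatty acids, by 0.31 ± 0.05 in non-stimulated cells. In stimulated cells Lpin1, a phosphatidate phosphatase, rose by 0.59 ± 0.13 and the acyltransferase gene Agpat3 by 0.53 ± 0.04. The interaction was called higher for 6 and lower for 1 of the 20, with Agpat3 (0.64 ± 0.06), Fabp5 (0.52 ± 0.08) and Fads2 (0.47 ± 0.15) the largest. On stimulation of control cells 9 rose and 8 fell, and Acss2, Elovl7 and Fads2 had the largest changes, at -4.24, -3.79 and -2.31.

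In the nonsterol branch, which turns farnesyl diphosphate into prenyl groups, dolichol and ubiquinone, 0 of 9 genes rose and 3 fell (33.3%) with Batf3 in non-stimulated cells, where 23.0% of all tested genes fell. These were Fntb (-0.28 ± 0.07), Nus1 (-0.27 ± 0.04) and Pdss1 (-0.25 ± 0.11). In stimulated cells 0 rose and 2 fell: Pggt1b, a subunit of an enzyme that prenylates proteins, and Nus1, a subunit of an enzyme of dolichol synthesis, with -0.30 ± 0.06 and -0.17 ± 0.04. The interaction was called lower for Pggt1b (-0.23 ± 0.08). On stimulation of control cells 4 of 9 rose and 2 fell, led by Nus1 (1.37 ± 0.04), Coq2, an enzyme of ubiquinone synthesis (0.95 ± 0.07), and Pdss1 (0.83 ± 0.10). Of 8 genes that process or degrade SREBP and its partners, 2 rose and 1 fell with Batf3 in non-stimulated cells, the largest being Fbxw7 (0.19 ± 0.05), Rnf145 (0.18 ± 0.03) and Rnf139 (-0.17 ± 0.07). In stimulated cells 1 rose and 2 fell, with the ubiquitin ligase gene Rnf145 at 0.22 ± 0.04, the site-2 protease gene Mbtps2 at -0.20 ± 0.08 and Syvn1, a ligase of protein degradation in the endoplasmic reticulum, at -0.18 ± 0.05. Stimulation of control cells raised 5 of the 8 and lowered 3, with Syvn1 at 0.99 ± 0.05, Mbtps2 at 0.81 ± 0.08 and Rnf139 at -0.55 ± 0.07.

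Of 15 further genes of the LXR pathway and of sterol handling, 5 rose and 1 fell with Batf3 in non-stimulated cells, beside 16.3% and 23.0% of all tested genes, and 3 rose and 4 fell in stimulated cells, beside 14.8% and 14.6%. Rxra, which encodes the RXR partner of LXR and of other nuclear receptors, stood at 26.4, 25.99 and 27.4 CPM in control and 68.7, 72.7 and 67.7 CPM in Batf3 non-stimulated libraries, and at 108, 112 and 109 CPM and 228, 221 and 230.1 CPM in stimulated ones. All Batf3 libraries were higher than their controls, with log2 changes of 1.39 ± 0.05 (edgeR adjusted p = 2.19e-32) and 1.04 ± 0.04 (edgeR adjusted p = 1.13e-32). The LXR genes themselves were not called in either culture: Nr1h2, encoding LXR beta, stood at 84.6 ± 1.32 CPM and 82.9 ± 4.23 CPM in non-stimulated cells, and Nr1h3, encoding LXR alpha, at 1.59 ± 0.352 CPM and 2.03 ± 0.307 CPM. Of the known LXR targets in this list, Smpdl3a and Arl4c rose in non-stimulated cells, by 0.48 ± 0.14 and 0.26 ± 0.03, and Arl4c rose in stimulated cells by 0.28 ± 0.08, where Smpdl3a was not called. Lpcat3 and Pltp, LXR targets of phospholipid remodelling and transfer that were named after their values were seen, were not called in non-stimulated cells (-0.08 ± 0.07 and -0.08 ± 0.11). In stimulated cells Lpcat3 fell (-0.19 ± 0.07) and Pltp was not called (-0.12 ± 0.34). Npc2, a carrier of lysosomal cholesterol, fell by 0.58 ± 0.03 in non-stimulated cells.

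Soat1 and Soat2, which esterify cholesterol for storage, shared an interaction called lower (-0.46 ± 0.10 and -0.87 ± 0.11), and Nceh1, a hydrolase of cholesteryl esters, one called higher (0.45 ± 0.12). Soat2 stood at 16.9 ± 2.03 CPM and 21.8 ± 0.226 CPM in control and Batf3 non-stimulated cells and at 29.2 ± 1.45 CPM and 20.5 ± 1.68 CPM in stimulated cells, a rise of 0.37 ± 0.08 in the former and a change of -0.51 ± 0.08 in the latter. Stimulation of control cells lowered 9 of the 15 and raised 3. The known LXR targets Arl4c and Smpdl3a fell from 459 ± 4.38 CPM to 16.3 ± 0.603 CPM (-4.81 ± 0.06) and from 7.76 ± 0.819 CPM to 0.254 ± 0.267 CPM, the latter near the 0.191 to 0.229 CPM that 3 counts stand for, and Pltp, the phospholipid transfer protein, changed by -3.69 ± 0.25. Of 5 oxysterol enzymes, none was expressed enough to be tested. Ch25h, which makes 25-hydroxycholesterol, had the highest group mean of these, 0.667 CPM in Batf3 stimulated cells.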

How the data were processed

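Read counts per gene were deposited by the authors for 12 libraries as whole numbers without normalization. Per the submitters' processing notes, reads were aligned to GRCm38 with STAR 2.7 and counted with featureCounts. The sources used here give no annotation release, strand setting or handling of reads with several alignments. The labels' protocols name poly-A capture and a stranded kit.

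The fits used edgeR 4.0.16 (R 4.3.3). The filter filterByExpr kept 15702 of 55335 genes. All 12 libraries entered 1 quasi-likelihood fit of 4 group means (8 residual degrees of freedom) with TMM factors and robust dispersions. Tests were two-sided, Benjamini-Hochberg adjustment ran over all tested genes, and calls needed an adjusted p under 0.05. Log2 changes carry an SE from the fit's information matrix and normal 95% intervals, and CPM carry no pseudocount. The fitting code was tested on simulated counts. Coordinates and exonic lengths came from GENCODE M21 (GRCm38), which held 55154 of the gene identifiers, and promoter windows from RefSeq (GRCm38.p6).

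The genes and lists were chosen with earlier results of these data known, and the related lists leave out genes that are withheld for evaluations. Values in each library were given for the LXR targets, Srebf1, Srebf2, Scap, both Insig genes, Scd1 and Scd2 and for the 4 called genes with the largest changes in each comparison at 1 CPM or more, and up to 3 called genes were named per related list and comparison, some of them with their values in other comparisons too. Same-numbered replicates of different groups did not deviate together (correlations from -0.06 to 0.02 over 18 pairs), so the numbers were not treated as pairs. Replicates of a group differed by more than counting noise (chi-square per degree of freedom from 1.48 to 3.30, highest for Batf3 stimulated replicate 3), and none was merged. A count of 3 stood for 0.191 to 0.229 CPM in 1 library, which limits the precision for genes such as Abca1; this covers counting error only. Alternatives were DESeq2 1.42.0, library sizes alone, other filters on low counts, fits of only the groups compared, a replicate block and leaving out each library.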

Additional observations from a re-analysis of the deposited data

Results flagged for a closer look

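The effect of Batf3 differed between stimulated and non-stimulated cells for 12 of the 34 genes, by edgeR's test of the interaction itself. Of these, 11 had a higher (more positive) and 1 a lower effect in stimulated cells, beside 14.6% and 6.08% of all tested genes. All 11 fell with Batf3 in non-stimulated cells. In stimulated cells Idi1 and Sqle fell by less, Lss and Fdft1 rose, and the rest of the 11 were not called. The difference, stimulated minus non-stimulated, on the log2 scale was 0.91 for Lss, 0.65 for Dhcr7, 0.57 for Pmvk, 0.54 for Fdft1, 0.51 for Cyp51 and 0.43 for Hsd17b7. It was 0.42 for Sqle, 0.34 for Msmo1, 0.34 for Fasn, 0.33 for Acaca and 0.32 for Idi1. Acat2 was the one gene with a lower effect in stimulated cells, at -0.27. The groups hold 3 libraries each, so single libraries were not screened for outlying values.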

How the results depend on the processing

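With library sizes alone, 2397 genes of the table were called lower with Batf3 in non-stimulated cells against 3615 with TMM factors. Without the filter on low counts, 1524 genes had a higher interaction against 2296. The number of listed genes with a lower interaction was 2 with library sizes alone, 2 without the filter and 2 with a mean of at least 10 CPM required, against 1, since Srebf2 was then called. It was 0 to 2 in fits that left out 1 library. Scaling by library sizes alone turned 2 called changes: that of Acly on stimulation with the control vector (-0.065) and that of Lss on stimulation with the Batf3 vector (-0.044), neither of which was then called. With the replicate number as a replicate block, 18 listed genes were called lower with Batf3 in non-stimulated cells against 19, as Sc5d was lost (adjusted p = 0.0531 by edgeR), and no other call on a listed gene changed. The requirement of 10 CPM left fewer listed genes to test. With DESeq2, 14 of the 27 SREBP targets fell with Batf3 in non-stimulated cells and 10 had a higher interaction. In stimulated cells 1 SREBP target rose with Batf3, not 2, with DESeq2 (adjusted p of Fdft1 0.0516) and without the filter, and also without control stimulated replicate 2 or Batf3 stimulated replicate 3. The counts of all listed genes called higher or lower in the 4 comparisons of 2 groups stayed within 1.5 times of those reported in the fits other than those that left out a library. Because the replicates are technical, no p-value given here, for small or large changes, covers the spread between mice or transductions. Changes as small as those of Scap and Srebf1 could pass the test on technical spread alone. Depth limits the reading of Abca1, Fdps, Mvk, Acsl3 and Tm7sf2, which stood at a few CPM. The counts of Fdps, Acsl3 and Tm7sf2 may also be affected by exons that they share with other genes. In stimulated cells depth also limits the reading of others, such as Abcg1, Mylip and Scd1.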
